A study of Mus musculus with 3 samples.

Results

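The genes of 10 basic leucine zipper (bZIP) transcription factors, Jun, Junb, Jund, Fos, Fosb, Fosl2, Batf, Bach1, Bach2 and Maf, were examined for Runx3 peaks and H3K4me1 regions in resting natural killer cells (NKC). Members were taken by gene symbol from an mm9 annotation (GENCODE vM1), all 10 symbols matched 1 protein-coding gene each, and each gene body with 20 kb on either side is called its window. The 10 windows held 32 of the 15524 Runx3 peaks and 81 of the 49902 H3K4me1 regions, and no window overlapped another. The study mapped chromatin by ChIP-seq in freshly isolated splenic NKC of ICR mice with an in-house polyclonal antibody to Runx3 or a monoclonal antibody to histone H3 monomethylated at lysine 4. Non-immune rabbit serum (NIS) was the control, with 1 sample for each antibody or serum and chromatin fixed in 1% formaldehyde. The labels name NKp46+ cells from sorting, the study's methods name DX5+ cells, and no age or sex was given. The methods name wild-type and Runx3-/- spleens as sources of NKC and give no genotype for ChIP-seq. The mice were taken here as wild type. Freshly isolated cells were taken as resting, without cytokine. The 2 deposited lists hold positions only, so no score, read depth, signal or replicate spread stood behind any value, and no test was run. The authors' methods describe calling on joined reads of biological repeats. Every count below describes these lists, and a share of peaks is given with a 95% Wilson interval that covers counting error alone.

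bZIP factors bind DNA as dimers that are held together by a leucine zipper, with the basic part of each partner touching the DNA. JUN proteins pair with each other or with FOS proteins to form AP-1, which is induced within minutes of receptor signalling through MAP kinases in lymphocytes and drives early activation genes. BATF lacks a transactivation domain and pairs with JUN proteins, BACH1 and BACH2 are repressors that pair with small MAF proteins, and MAF itself is a large MAF protein with an activating domain. Runx3 binds through its Runt domain to the RUNX consensus, and H3K4me1 marks enhancers and the flanks of active promoters.

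The labelled cell type was compared with marker genes over the same kind of window. All 8 NK markers, Ncr1, Klrb1c, Klrk1, Klrd1, Eomes, Tbx21, Gzma and Prf1, had Runx3 peaks, and H3K4me1 covered 29.8 to 94.8% of their windows (median 69.3%). Of 6 T cell markers 3 had a peak, of 5 B cell markers 4 and of 5 myeloid markers 3, and none of these had one under 1 kb from its own TSS, against 6 of the 8 NK markers. Over all protein-coding genes 51.0% had a peak in the window and 27.2% had one under 1 kb from an own TSS. H3K4me1 covered 0 to 44.7% (median 17.9%), 0 to 28.2% (median 7.03%) and 0 to 20.5% (median 4.96%) of the T cell, B cell and myeloid windows. The median over all protein-coding genes was 7.37%. Windows of Cd8a, Cd8b1, Ms4a1, Emr1 and Lyz2 had 0 H3K4me1 regions, while those of Cd3e, Cd3g and Cd3d were covered to 27.3, 43.4 and 44.7%. Cd3e, Cd3g and Cd3d were the 3 T cell markers with a peak, and their windows overlap one another. The windows of Cd8a and Cd8b1 also overlap, as do those of Klrk1 and Klrd1. The part that other cell types had in the values below was not tested.

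Runx3 peaks lay in the windows of 9 of the 10 members, against 51.0% of 22367 protein-coding genes. Junb had 9 peaks, Bach2 7, Jund 5, Fos 4, Fosb and Fosl2 2 each, and Jun, Batf and Bach1 1 each, whereas Maf had 0. The median of 2 peaks stood beside a median of 1 over all protein-coding genes, and 4 of 10 members had at least 3 peaks, against 14.1%. Window length differs among genes, so peaks were also expressed per 100 kb of window. The median was then 2.79 for the members and 0.451 for all protein-coding genes, with median windows of 54.3 and 55.4 kb. Of all protein-coding genes 10964 (49.0%) had 0 peaks, so their median density lies just above these zeros. The distance between the 2 medians therefore does not measure a fold difference in density.

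H3K4me1 regions lay in all 10 member windows, against 74.0% of protein-coding genes. They covered 11.3% (Maf) to 49.0% (Junb) of the window, with a median of 19.9%, beside 7.37% for all protein-coding genes. Junb, Fosb at 37.8%, Fos at 35.8% and Jund at 31.9% were the most widely marked, while Fosl2, Bach2, Batf, Bach1 and Jun lay between 13.5 and 20.4%.

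**Figure D1:**
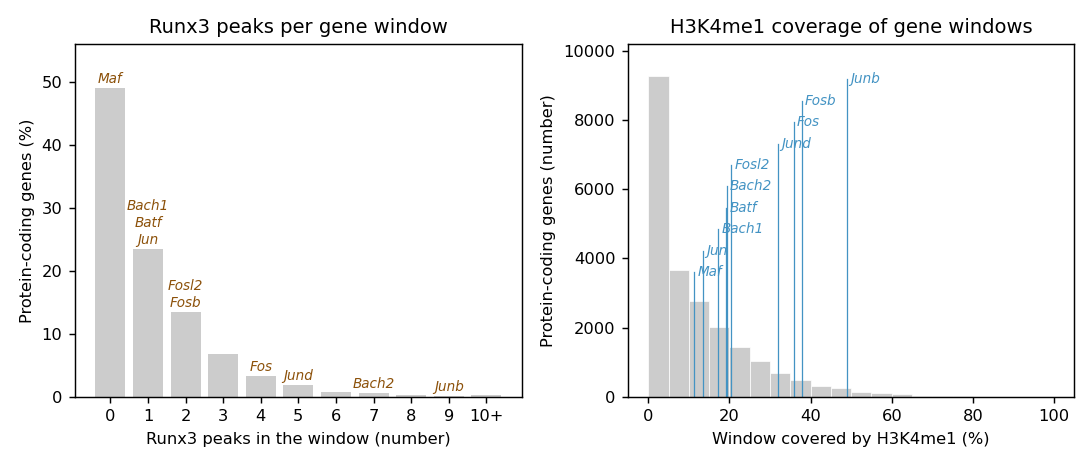
Left, protein-coding genes (%) by the number of Runx3 peaks in the gene body with 20 kb flanks, with the 10 members named above their number. Right, protein-coding genes (number) by the percentage of the same window covered by H3K4me1, with a line at each member. Maf stands alone at 0 peaks and Junb stands highest in both panels, with 9 peaks and 49.0% coverage.

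Sequences were read on the plus strand of mm9 unless stated otherwise. The RUNX consensus was searched as the word TGTGGT and its 3 variants, the second word being TGTGGC, the third being TGCGGT and the fourth being TGCGGC. AP-1 was searched as TGACTCA, whose reverse complement is TGAGTCA, and ETS as AGGAAGT or, with another first base, CGGAAGT. The cyclic AMP response element (CRE), which JUN with ATF or CREB partners can bind, was searched as TGACGTCA. Every word was searched on both strands and overlapping matches were counted. None of the RUNX, AP-1 and CRE words contains another, although matches of any of them may share bases at their ends. A match describes the letters in a window and does not show that a factor was bound there.

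Stretches in which RUNX and AP-1 matches lay within 50 bp of each other are shown first, because the factors that bind AP-1 are the products of these genes. Capitals mark RUNX and AP-1 matches. The first stretch lies at chr8:87509544-87509705 upstream of Junb, the second at chr8:73239222-73239297 downstream of Jund and the third at chr4:32336841-32336947 in an intron of Bach2.
Junb, upstream peak: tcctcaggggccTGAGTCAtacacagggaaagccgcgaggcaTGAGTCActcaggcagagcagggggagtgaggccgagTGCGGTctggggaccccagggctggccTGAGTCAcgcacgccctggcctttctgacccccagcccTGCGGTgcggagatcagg
Jund, downstream peak: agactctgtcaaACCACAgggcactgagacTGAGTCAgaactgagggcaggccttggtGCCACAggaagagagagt
Bach2, intronic peak: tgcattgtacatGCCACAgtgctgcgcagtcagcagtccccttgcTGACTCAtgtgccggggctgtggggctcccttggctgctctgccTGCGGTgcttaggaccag
The Junb stretch of 162 bp held 3 AP-1 and 2 RUNX matches. The Jund stretch of 76 bp and the Bach2 stretch of 107 bp each held 1 AP-1 match between 2 RUNX matches. From the peak midpoint, the AP-1 matches shown were centred at -396, -366 and -302 bp for Junb, 2 bp for Jund and -717 bp for Bach2. Only the Jund match lay in the central 200 bp of its peak.

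Junb (chr8:87500811-87502617, minus strand), which encodes a JUN protein that can restrain as well as support AP-1 activity, had the densest Runx3 occupancy of the members. Its 9 peaks in a window of 41.8 kb gave 21.5 per 100 kb, a density reached by 3 of the 22367 protein-coding genes, Junb included. The others were Klrb1c at 23.7 and Klrb1b at 22.8 per 100 kb, neighbouring NKC receptor genes whose windows overlap. Gimap9 followed Junb at 20.9 and Tyrobp, the adaptor DAP12, at 20.6. This order was noticed in the table of all genes and was not tested.

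Distances from the gene start are given in the direction of transcription, with negative values upstream. Peaks at Junb lay at -11.6, -7.34, -4.08 and -0.071 kb, inside the gene at 0.962 kb, and downstream at 2.10, 3.13, 9.02 and 12.4 kb. The peak over the gene start (chr8:87502245-87503130) and the peak in the coding exon (chr8:87501282-87502027) were separate calls. The nearest TSS was not that of Junb for every peak. The peaks at 12.4, 9.02 and -11.6 kb had midpoints 206, 8 and 279 bp from transcription start sites (TSSs) of Rnaseh2a, a ribonuclease H2 subunit, Prdx2, a peroxiredoxin, and Hook2, a microtubule adaptor. The peak at -7.34 kb (chr8:87509187-87510722), which carried the AP-1 matches shown above, was also nearest to a Hook2 TSS, at 4539 bp.

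H3K4me1 at Junb formed a region of 8.85 kb from -8.84 kb to just past the gene start, and it held 3 Runx3 peaks. A second region began at 2.21 kb and held 2 peaks. The peak in the coding exon lay in the gap between them, 875 bp from one region and 580 bp from the other, and overlapped no H3K4me1. Altogether 6 regions covered 20.5 kb of the window.

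Jund (chr8:73221638-73224515, plus strand), which encodes the JUN protein that is broadly expressed in resting cells, showed a similar layout on a smaller scale. Its 5 peaks lay at -2.17, 1.02, 2.16, 2.98 and 17.6 kb, or 11.7 per 100 kb, and 155 protein-coding genes had at least that density. The peak at 1.02 kb (chr8:73222078-73223237) covered UTR and coding sequence and held the CRE match, which was the 1 CRE match of the 32 member peaks. The peak at 2.16 kb lay in coding sequence, over the antisense gene model Gm11175, between H3K4me1 regions that ended 688 bp before it and began 287 bp after it. The peak at 17.6 kb was nearest to a TSS of Pde4c, a phosphodiesterase gene, at 8366 bp.

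Jun (chr4:94715725-94718913, minus strand), which encodes the founding AP-1 subunit c-Jun, had 1 Runx3 peak. It lay inside the coding exon at 1.45 kb (chr4:94717015-94717919), 758 bp from the start of the noncoding transcript BC042782, which runs in the opposite direction. The gene start itself lay between H3K4me1 regions 515 bp upstream and 359 bp downstream, and the peak overlapped the downstream one. The nearest peaks beyond the window were 114 kb upstream and 69.5 kb downstream of the gene. At least 1 peak was found at 11403 protein-coding genes, so the count at Jun was a common one, in contrast to those at Junb and Jund. The peak held 5 RUNX matches, of which 3 are shown in capitals (chr4:94717253-94717375) because it was the only Runx3 call at Jun.
Jun, coding exon: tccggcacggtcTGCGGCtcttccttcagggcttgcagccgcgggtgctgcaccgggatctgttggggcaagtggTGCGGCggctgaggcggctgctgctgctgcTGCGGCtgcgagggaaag

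**Figure D2:**
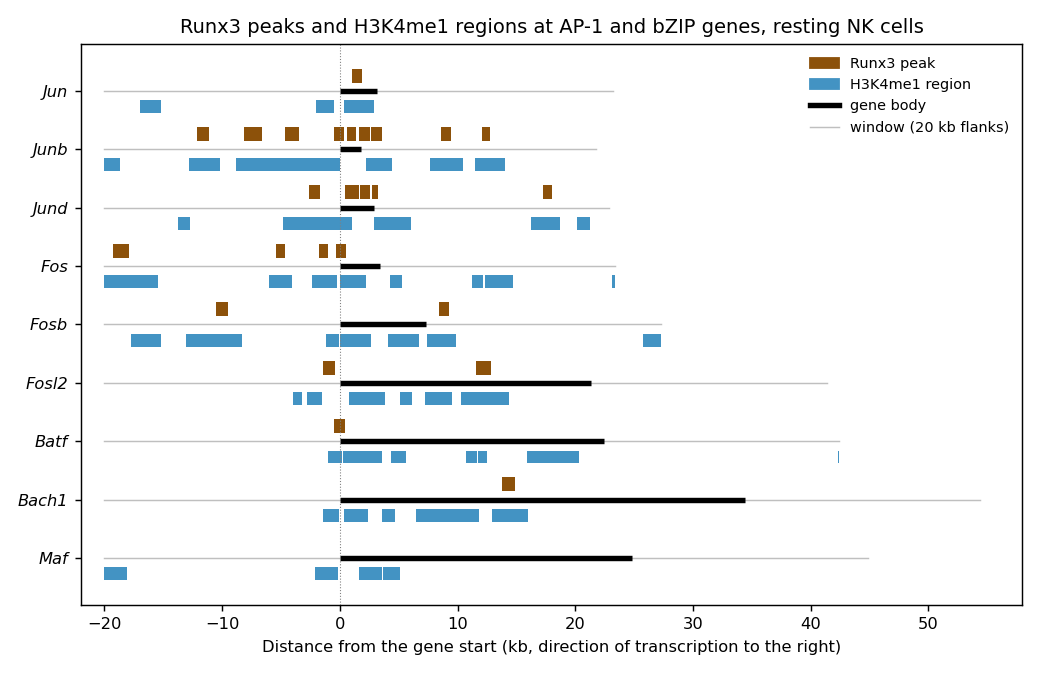
Runx3 peaks (brown, above each line) and H3K4me1 regions (blue, below) for the 9 members other than Bach2, against the distance from the gene start in kb, with the gene body in black and the 20 kb flanks in grey. Junb carries 9 peaks on both sides of its start, Jund and Fos carry 5 and 4, and Maf has H3K4me1 regions but 0 Runx3 peaks.

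Fos (chr12:86814840-86818223, plus strand), which encodes the immediate-early AP-1 subunit c-Fos, had 4 Runx3 peaks, all at its start or upstream. They lay at -18.6, -5.07, -1.40 and 0.099 kb, and for each the nearest TSS was that of Fos. The gene start was in a gap of 299 bp between H3K4me1 regions 258 bp upstream and 42 bp downstream, and the peak over the start (chr12:86814536-86815342) reached into both regions. Of 8 H3K4me1 regions in the window, the widest at 5.74 kb held the most upstream peak, and the 4 regions that began 4.24 kb or more downstream of the start held 0. The next peak outside the window lay 26.2 kb upstream and was also nearest to Fos.

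Fosb (chr7:19888070-19895394, minus strand), a FOS family gene induced by stimulation, had 7 H3K4me1 regions and 2 Runx3 peaks. The gene start lay inside a region of 2.67 kb with 0 Runx3 peaks, and the peaks were centred at -10.0 kb (chr7:19904889-19905908) and at 8.83 kb (chr7:19886137-19886993). The upstream peak was in the widest region of the window, 4.76 kb, while the downstream peak was 446 bp from the start of the lincRNA Gm17589. Fosb was thus second in H3K4me1 coverage among the members, yet had no Runx3 peak under 1 kb from its TSS.

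Fosl2 (chr5:32438845-32460204, plus strand), which encodes Fra-2, had a peak at -0.897 kb (chr5:32437439-32438456) and another in an intron at 12.2 kb (chr5:32450420-32451667). The promoter peak lay in a gap of 2253 bp in H3K4me1 around the gene start, with a region ending 76 bp before it and another beginning 1159 bp after it. The intronic peak sat in a region of 4.04 kb and held 10 RUNX matches, a number reached by 123 of all Runx3 peaks (0.792%). That comparison was chosen after the count was seen and did not allow for peak width. The intronic peak was 1248 bp wide, beside a median of 825 bp over all peaks. No further peak lay within 301 kb downstream of the gene.

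Batf (chr12:87027619-87050037, plus strand), whose product pairs with JUN proteins and cooperates with IRF4, had 1 Runx3 peak, centred 30 bp upstream of the gene start (chr12:87027154-87028023). It overlapped 2 H3K4me1 regions, one that ended 223 bp after the start and one that began 290 bp after it. The window held 7 H3K4me1 regions, and 5 of them, including the widest of 4.42 kb in the gene body, had 0 Runx3 peaks. The peaks nearest to the window were 25.4 kb upstream and 115 kb downstream of the gene.

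Bach1 (chr16:87699190-87733591, plus strand), a haem-regulated repressor gene, had 1 Runx3 peak at 14.3 kb in an intron (chr16:87713012-87714056). The peak held 1 AP-1 match, 279 bp from the nearest of 3 RUNX matches. The gene start lay in a gap of 451 bp between H3K4me1 regions that held 0 peaks, and the widest region of 5.32 kb also held 0. Coverage was 17.2%, and no other peak was found within 203 kb upstream of the gene or 2139 kb downstream.

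Bach2 (chr4:32325779-32673083, plus strand), which encodes a repressor that restrains effector programmes in lymphocytes, is by far the longest member and had 7 Runx3 peaks, all in introns and all with H3K4me1. They lay at 0.889, 10.4, 11.8 and 19.5 kb near the gene start, at 97.3 and 105 kb, and at 201 kb, and the rest of the gene had 0 peaks. Its count exceeded that of 98.6% of protein-coding genes, but the window of 387 kb brought the density to 1.81 per 100 kb, which exceeded 65.5%. H3K4me1 formed 30 regions over 74.8 kb of the window, and 6 of these regions held the peaks. The widest region, 8.04 kb from 7.77 kb to 15.8 kb, held 2, among them the widest member peak of 1904 bp (chr4:32336654-32338557). The peak nearest the first start (chr4:32326268-32327068) was intronic and held 7 RUNX matches, and its densest stretch (chr4:32326499-32326612) is shown because 5 matches lie in 114 bp there.
Bach2, intronic peak near the start: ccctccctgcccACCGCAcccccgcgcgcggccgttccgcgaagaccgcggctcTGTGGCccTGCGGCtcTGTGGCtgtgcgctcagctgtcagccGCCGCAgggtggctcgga

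**Figure D3:**
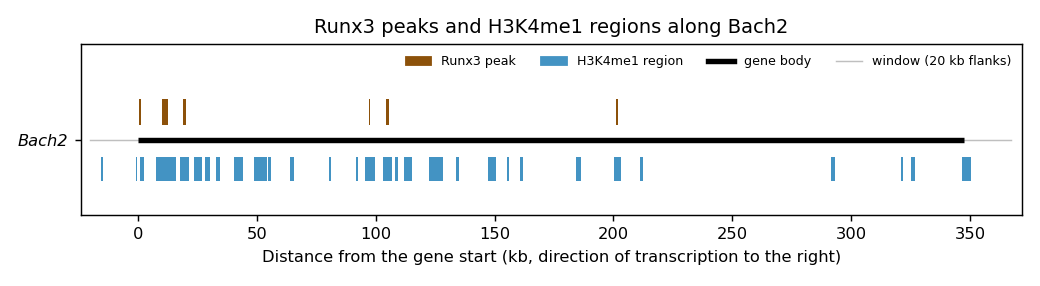
Runx3 peaks (brown) and H3K4me1 regions (blue) along Bach2 against the distance from the gene start in kb, with the gene body in black. The 7 peaks lie within the first 201 kb, whereas the 30 H3K4me1 regions extend past the end of the gene.

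Maf (chr8:118206842-118231694, minus strand), which encodes c-Maf, had 0 Runx3 peaks in its window. The nearest peaks on either side lay 797 kb upstream and 156 kb downstream of the gene. H3K4me1 was nevertheless found in 4 regions, which covered 7.34 kb or 11.3% of the window. A region ended 139 bp upstream of the gene start and another began 1616 bp downstream, leaving a gap of 1754 bp. Coverage at Maf, the lowest of the members, still exceeded that of 61.4% of protein-coding genes.

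Gene starts and H3K4me1 were compared over the members. For 6 of 10 members at least 1 annotated TSS lay inside an H3K4me1 region, against 43.5% of protein-coding genes. With the first base of the gene alone, Junb, Jund, Fosb and Batf were inside a region, while Jun, Fos, Fosl2, Bach1, Bach2 and Maf lay in gaps of 299 to 2253 bp between regions. A Runx3 midpoint lay under 1 kb from an own TSS at 6 of 10 members, Junb, Jund, Fos, Fosl2, Batf and Bach2, against 27.2%. Jund was counted through an annotated TSS inside the gene, 199 bp from the midpoint of the peak at 1.02 kb. No Jund peak was centred under 1 kb from the gene start itself.

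Over the 32 peaks, 29 overlapped H3K4me1 (90.6%, interval 75.8 to 96.8%), against 95.7% of all Runx3 peaks. Midpoints of 27 lay inside a region (84.4%, interval 68.2 to 93.1%), against 83.6%. Each of the 3 peaks without overlap, at Junb, Jund and Fosl2, lay between regions that were at most 1159 bp away on either side. Midpoints of 14 peaks lay under 1 kb from any TSS (43.8%, interval 28.2 to 60.7%), against 39.1%. These shares were close to the background, and the intervals contained it.

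The nearest TSS belonged to the member itself for 21 of the 32 peaks, to another protein-coding gene for 7 and to a noncoding transcript for 4. Relative to the member, 11 peaks were upstream, 14 inside the gene body and 7 downstream. Only 8 were under 1 kb from a TSS of the member, 9 were at 1 to 5 kb and 15 farther away. Position alone does not assign a peak to a gene. Beyond the limit of 20 kb the closest peaks were those at Jund, 20.2 kb downstream (nearest TSS Pde4c) and 21.9 kb upstream (Lsm4), and at Fosb, 22.6 kb upstream (Ercc1).

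The RUNX consensus occurred in 29 of 32 member peaks (90.6%, interval 75.8 to 96.8%), against 93.3% of all peaks. The 3 peaks without it lay over the Fos start, downstream of Jund at 2.98 kb, and at the Rnaseh2a start in the Junb window. A total of 103 matches were found, with a median of 3 per peak, beside 2 over all peaks. TGTGGC occurred in 19 peaks (59.4%, all peaks 54.1%), TGTGGT in 18 (56.2%, all peaks 65.5%), TGCGGC in 12 (37.5%, all peaks 26.1%) and TGCGGT in 11 (34.4%, all peaks 24.7%).

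The AP-1 consensus occurred in 6 of 32 member peaks (18.8%, interval 8.89 to 35.3%), against 16.5% of all peaks. They were the 2 peaks upstream of Junb at -4.08 and -7.34 kb, the peak at 17.6 kb from Jund, the Fosl2 promoter peak, and the intronic peaks of Bach1 and of Bach2 at 11.8 kb. None of the 6 lay over an exon, and the peaks at Jun, Fos, Fosb and Batf had 0 AP-1 matches. The peak at -7.34 kb from Junb held 4 AP-1 matches, and 6 of the 15524 peaks (0.0386%), itself included, held at least 4. The Bach2 peak held 3, and 38 peaks (0.245%) held at least 3. Both comparisons were chosen after the counts were seen and did not allow for peak width. The Junb and Bach2 peaks were 1536 and 1904 bp wide, beside a median of 825 bp over all peaks. RUNX and AP-1 lay within 50 bp of each other in 3 member peaks (9.38%, interval 3.24 to 24.2%), against 5.57%.

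ETS matches occurred in 7 of 32 member peaks (21.9%, interval 11.0 to 38.8%), against 41.8% of all peaks, and the interval did not contain that share. Of the properties given with an interval over whole peaks, ETS alone missed its background. The interval treats peaks as independent, although the Junb window held 9 and the Bach2 window 7 of the 32, so it is no test. Junb had 3 of the 7 peaks with an ETS match, and without Junb the share was 17.4% (interval 6.98 to 37.1%). In the central 200 bp of the peaks it was 12.5% (interval 4.97 to 28.1%), beside 20.1% over all peaks, so that the interval contained the background there. Both settings were added after the values were seen. CRE occurred in 1 peak (3.12%, interval 0.554 to 15.7%), against 3.03%. Peak widths, which set how much sequence was searched, had medians of 878 bp at the members and 825 bp over the whole list.

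**Figure D4:**
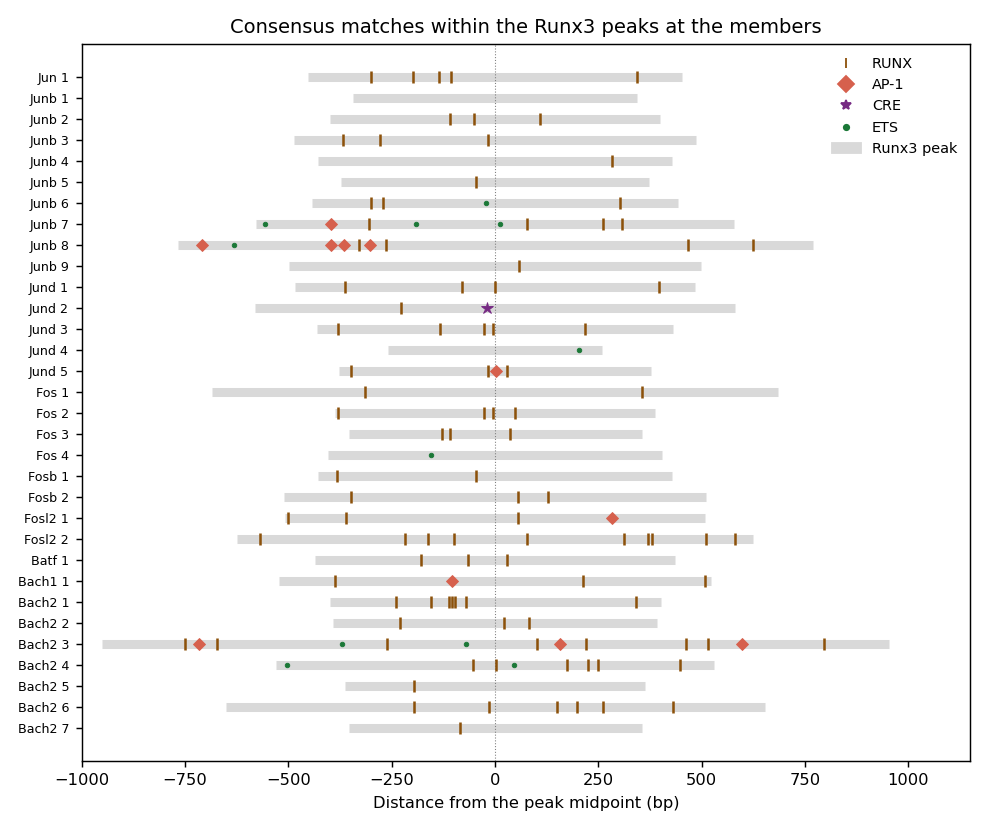
Positions of RUNX (brown bars), AP-1 (red diamonds), CRE (purple star) and ETS (green dots) matches in the 32 member peaks, as distance from the peak midpoint in bp, with the peak width in grey and peaks numbered along the chromosome. AP-1 matches fall in 6 peaks, with 4 in the Junb peak at -7.34 kb (Junb 8) and 3 in Bach2 3.

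Peaks over TSSs were examined at the RUNX match nearest their midpoint. Each stretch is 30 bp long, since these matches lie in or beside untranslated sequence, and capitals mark the match. The Junb match (chr8:87502401-87502430) and the Jund match (chr8:73222416-73222445) lay after the gene start, whereas the Batf match (chr12:87027602-87027631) reached 1 base into the transcript. The Jund peak covered a TSS inside the gene and did not reach the gene start. The CRE match of the Jund peak (chr8:73222623-73222652) is added because it was the only one in the set.
Junb, RUNX: gctgtcctcggcTGTGGCaggacccggtgt
Jund, RUNX: tccacacatcacGCCACAgaagtgccagag
Batf, RUNX: gaattaccagaaACCACAagagagggcctg
Jund, CRE: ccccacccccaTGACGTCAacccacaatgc

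The 250 bp before each gene start were then read in the direction of transcription. RUNX words occurred before Fosb, Batf and Maf, 3 of 10 members, and in 37.5% of 22367 protein-coding genes over the same length. AP-1 words occurred before 0 of 10 members (3.85% of genes), ETS before Junb and Fos (12.5% of genes) and CRE before Bach2 and Maf (1.91% of genes). Reading these bases was not part of the plan for sequences, which covered peaks only, and the differences were not tested. Positions count back from -1 at the base before the gene start. Fos and Batf are shown because these bases lie wholly in a Runx3 peak, as they also do at Junb, and Maf because it had no peak, with RUNX, ETS and CRE matches in capitals. The Batf sequence (chr12:87027369-87027618) held RUNX words that began at -212 and -98, the Fos sequence (chr12:86814590-86814839) held an ETS word at -60 and no RUNX word, and the Maf sequence (chr8:118231695-118231944, minus strand) held a RUNX word at -245 and a CRE word at -84.
Batf, upstream: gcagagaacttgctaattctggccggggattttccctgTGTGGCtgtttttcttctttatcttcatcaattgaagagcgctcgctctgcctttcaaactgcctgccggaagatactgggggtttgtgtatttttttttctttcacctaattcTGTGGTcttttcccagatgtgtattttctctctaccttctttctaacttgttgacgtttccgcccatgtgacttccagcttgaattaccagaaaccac
Fos, upstream: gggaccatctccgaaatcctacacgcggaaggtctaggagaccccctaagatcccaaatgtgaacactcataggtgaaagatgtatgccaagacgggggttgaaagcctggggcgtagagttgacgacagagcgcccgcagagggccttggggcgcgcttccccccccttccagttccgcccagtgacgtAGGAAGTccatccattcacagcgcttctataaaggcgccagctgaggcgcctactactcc
Maf, upstream: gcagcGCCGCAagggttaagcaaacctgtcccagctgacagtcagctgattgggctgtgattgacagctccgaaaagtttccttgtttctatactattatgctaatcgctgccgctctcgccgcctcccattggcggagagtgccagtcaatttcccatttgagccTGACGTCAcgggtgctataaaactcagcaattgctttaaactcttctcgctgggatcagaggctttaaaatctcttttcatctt

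A list of 42 other bZIP genes was described in the same way. Runx3 peaks lay in 35 of the 42 windows, against 51.0% of protein-coding genes, and 12 windows held at least 3, against 14.1%. With the gene body alone, 25 of the 42 had a peak, against 33.6% of protein-coding genes. Counting only peaks nearer to the gene than to another protein-coding gene, 27 had a peak, and no share over all genes was computed for that setting. The median was 2 peaks, or 2.58 per 100 kb. A Runx3 midpoint under 1 kb from an own TSS was found at 21 of the 42, against 27.2%. Creb3l1, which encodes an endoplasmic reticulum-anchored factor, had the most peaks with 7, followed by Ddit3 (the stress factor CHOP) and Nfil3 (E4BP4, a factor needed for NKC development) with 5 each. Creb3l1 and Nfil3 had no peak centred under 1 kb from an own TSS, whereas Ddit3 did. Creb3, Nfe2 and Nfe2l2, the last encoding the oxidative stress factor NRF2, had 4 each. H3K4me1 covered a median of 17.1% of these windows, from 1.91% at Creb3l2 to 50.7% at Fosl1.

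Windows with 0 Runx3 peaks included those of Atf2, Cebpa, Creb3l2 and Hlf. The small MAF genes Maff (3 peaks), Mafg and Mafk (2 each), whose products are partners of BACH1 and BACH2, each had Runx3 peaks. All 4 NFE2 genes and all 4 of Fosl1, Batf2, Batf3 and Jdp2 had at least 1 peak. Of 17 ATF and CREB genes 15 had a peak, as did 5 of 6 C/EBP genes and 3 of 4 PAR and Nfil3 genes, and Xbp1 had 3 peaks. The families were formed after the values were seen, and differences between them were not tested.

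**Figure D5:**
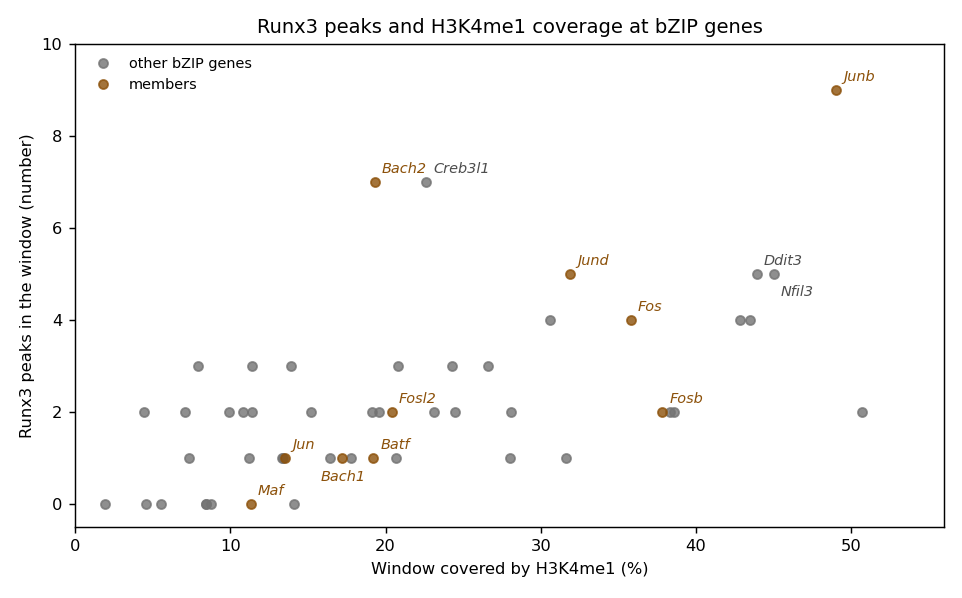
Runx3 peaks in the window (number) against the percentage of the window covered by H3K4me1, for the 10 members (brown) and 42 other bZIP genes (grey), each point 1 gene. Junb stands at 9 peaks and 49.0% coverage, and the genes without a peak, Maf among them, lie between 1.91 and 14.1% coverage, a range that also holds genes with peaks.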

How the data were processed

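Chromatin of splenic NKC was sequenced by the authors on an Illumina Genome Analyzer IIx (40 bp reads, fragments of about 300 bp), aligned to mm9 with ELAND (CASAVA 1.7 in the submitters' processing notes) and restricted to unique alignments. They joined biological repeats and called regions with MACS against NIS, scaling the larger data set to the smaller. The deposited lists hold region coordinates only, and the depth behind each region is unknown.

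Chromosome lengths were compared with the NCBIM37 (mm9) sequence, and 1 H3K4me1 region ran past the end of chromosome 4. Windows, overlaps of at least 1 bp, coverage and consensus matches were computed in Python 3.11.15 with numpy 2.4.6 and scipy 1.17.1. The overlap and coverage functions were first tested on simulated intervals, and the matching function on simulated sequences with RUNX words. Coordinates are 1-based. TSSs were those of all annotated transcripts. In the list of other bZIP genes, 2 records of Atf7 were joined and Cebpd was taken although annotated as a pseudogene. Members and lists were chosen with earlier results of these data known. The rule for named genes took all members, their peaks, and the other bZIP genes with the most (6, with ties) or 0 peaks. Alternatives changed the window, the overlap, the lists, the TSS set and the sequence searched. Some results on other bZIP genes are not reported here.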

Additional observations from a re-analysis of the deposited data

How the results depend on the processing

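The 11 results were recomputed under 79 other settings, of which 5 were added once the values had been seen, and in 68 the value stayed within 1.5 times the reported count, median or coverage, or within the interval of the reported share. The number of members with a Runx3 peak was 8 with the gene body alone and 9 under each of the other settings tried. The background for this count was 33.6% of genes with the gene body alone, 39.7% with flanks of 5 kb and 62.6% with flanks of 50 kb. With the gene body alone there were 18 Runx3 peaks, a median of 1 per member and 50 H3K4me1 regions, and with flanks of 50 kb the median was 5 and there were 125 H3K4me1 regions. Runx3 peaks wider than the median of their list numbered 20, all with the RUNX consensus (100%), and H3K4me1 regions wider than the median numbered 46. Without Bach2 there were 51 H3K4me1 regions. In the central 200 bp of the peaks, RUNX occurred in 62.5% (all peaks 69.2%) and AP-1 in 3.12% (all peaks 5.49%). The ETS share of 12.5% there had an interval that contained the 20.1% of all peaks, unlike that over whole peaks. The cause of these shifts was not tested. No paired analysis was possible because each antibody had 1 list and no test was run. Leaving out a replicate was likewise not possible.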

Other observations

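Fos and Batf are neighbours in the genome on chromosome 12, and Jdp2, a bZIP repressor of AP-1, lies between them. The stretch from the start of Fos to the end of Batf (chr12:86814840-87050037, 235 kb) held 6 Runx3 peaks and 23 H3K4me1 regions, which covered 19.8% of it. The Jdp2 window held 3 of these peaks, 1 of them centred 406 bp from a Jdp2 TSS (chr12:86939547-86940372), and all 3 overlapped H3K4me1. AP-1 matches occurred in 2 of the 6 peaks, 1 of which was the Jdp2 peak at chr12:86943539-86944361.

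Around Maf, the stretch between the nearest Runx3 peaks on either side (chr8:118051313-119028414, 977 kb) contained 1 protein-coding gene, Maf itself, and 12 H3K4me1 regions, which covered 1.80% of it. Around Bach1, the corresponding stretch (chr16:87496445-89872127, 2376 kb) contained 41 protein-coding genes, 12 H3K4me1 regions with 1.09% coverage and the 1 Runx3 peak in the Bach1 intron. These stretches were chosen after the values were seen.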
